A study of Sus scrofa with 32 samples.

Results

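Interferon-stimulated genes are genes that cells switch on when an interferon reaches them, and their levels are read as a measure of the antiviral state. The 10 genes followed here were chosen by name: OAS2 (ENSSSCG00000009881), MX1, IFIT1, IFIT2, IFI44, IFI44L, RSAD2, USP18, IRF7 and CMPK2. They are 10 of the 25322 pig gene identifiers in the count table, and all 10 passed the filter on low counts when all 32 libraries were fitted together. The samples came from 16 gilts, all labelled as aged 180 days, 8 of the Pulawska breed (PUL), an indigenous Polish breed, and 8 Polish Landrace (PL). The study slaughtered them at a set body weight and treated age at slaughter as a trait that varied, so the labelled age cannot be exact for every pig. Each gilt gave 1 library from the longissimus dorsi muscle of the loin (LD) and 1 from the semimembranosus muscle of the ham (S), so each of the 4 groups of breed and muscle held 8 libraries. All gilts were housed and fed alike at 1 test station, came from different farms, were unrelated and received no treatment other than fasting before slaughter. The labels name no infection or interferon treatment.

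Interferons bind receptors at the cell surface, and the kinases JAK1 and TYK2 then phosphorylate transcription factors of the STAT family. With IRF9 these form a complex that enters the nucleus and starts transcription of the interferon-stimulated genes. The products include enzymes and RNA-binding proteins that block viruses, sensors that detect viral RNA, and regulators that strengthen or stop the signal. Skeletal muscle fibres, endothelial cells and resident immune cells can all respond to interferon. In whole muscle, more cells of one type and more RNA per cell cannot be told apart.

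The 32 libraries held from 8821273 to 24761853 counts, and 3 counts corresponded to between 0.097 and 0.353 CPM, counts scaled to the size of the library, which is the unit of the levels given here. CPM is scaled for sequencing depth but not for gene length, so levels are compared between libraries and not between genes. The 3 skeletal muscle markers with an identifier, of 12 listed, together reached at least 36192 CPM in every library, as the tissue label states. No pair of libraries in a group was alike within counting noise. The 13 hepatocyte markers that passed the filter, ALB among them, summed to between 8.41 and 1613 CPM in PUL libraries and between 9.60 and 34.3 CPM in PL libraries.

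All 10 genes were high in 1 animal. PUL pig 5, singled out after its values were seen, had the highest level of all 10 genes among the 16 S libraries and of 8 of the 10 among the 16 LD libraries. Over the 11563 genes tested, this pig was the highest of 16 in 10.1% of genes in S, in 8.26% in LD and in 1.31% in both muscles, against 8 of the 10 interferon-stimulated genes in both. Relative to the median of the other 7 PUL pigs, on the CPM + 0.5 scale, the 10 genes were 3.98-fold to 56.6-fold higher in the S library of pig 5, with a median of 9.54. In its LD library they were 1.65-fold to 15.4-fold higher, with a median of 3.11. The median ratio over all genes was 1.01 in S and 0.993 in LD, and the 99th percentile was 6.70 in S and 3.69 in LD. In both muscles 9 of the 10 genes were at least 2-fold and 4 of the 10 at least 4-fold higher, against 1.87% and 0.32% of all genes. These ratios describe 1 animal and carry no test.

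**Figure D1:**
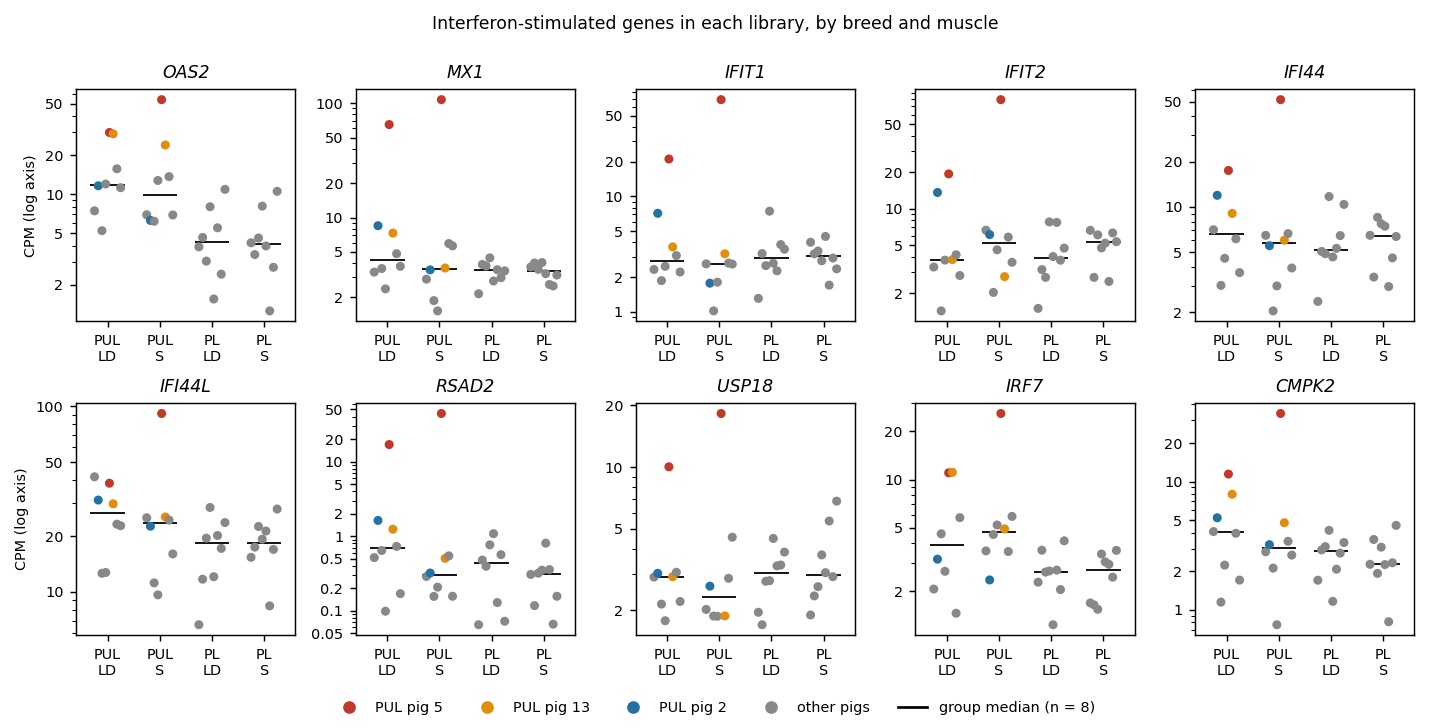
Level of each of the 10 genes in CPM (log axis) in the 32 libraries, by breed and muscle, with 1 point per library and a line at the group median (n = 8). PUL pig 5 (red) is the highest S library in all 10 panels, reaching 107 CPM for MX1, while PL libraries stay at or under 4.44 CPM for that gene.

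Among the antiviral effectors, MX1 encodes a dynamin-like GTPase that blocks the replication of influenza and other viruses. In S, MX1 ranged from 1.53 through a median of 3.55 to 107 CPM in PUL pigs and from 2.52 through 3.38 to 4.04 CPM in PL pigs. In LD, it ranged from 2.38 through 4.29 to 64.9 CPM in PUL pigs and from 2.16 through 3.46 to 4.44 CPM in PL pigs. Both maxima belonged to pig 5, the next highest libraries were PUL pig 16 in S at 5.92 CPM and PUL pig 2 in LD at 8.48 CPM, and the remaining libraries of the breeds overlapped. Of all the MX1 signal summed over the 8 PUL pigs, pig 5 supplied 81.1% in S and 65.9% in LD.

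OAS2, an oligoadenylate synthetase that is activated by double-stranded RNA, had a different distribution. In LD, OAS2 ranged from 5.23 through a median of 11.8 to 30.0 CPM in PUL pigs and from 1.55 through 4.28 to 10.9 CPM in PL pigs. In S, it ranged from 6.18 through 9.85 to 53.8 CPM in PUL pigs and from 1.25 through 4.10 to 10.5 CPM in PL pigs. The breeds overlapped in both muscles, but the PL median lay under the lowest PUL library in each muscle. PUL pig 13 followed pig 5 in both muscles, at 29.3 CPM in LD and 24.0 CPM in S, and among PL pigs the same 2 animals, pigs 18 and 10, held the highest values in both muscles. The medians of the 2 muscles within a breed differed by less than the spread between pigs.

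IFIT1 and IFIT2 encode RNA-binding proteins that hinder the translation of viral RNA. In S, IFIT1 ranged from 1.02 through a median of 2.60 to 69.2 CPM in PUL pigs and from 1.70 through 3.05 to 4.50 CPM in PL pigs. In LD, it reached 21.1 CPM in pig 5, 7.15 CPM in PUL pig 2 and 7.45 CPM in PL pig 10, and the medians of the breeds were 2.77 CPM for PUL and 2.91 CPM for PL pigs. Apart from pig 5 the PUL libraries therefore lay within or near the PL range. IFIT2 in S ranged from 2.03 through 5.21 to 79.6 CPM in PUL pigs and from 2.51 through 5.27 to 6.63 CPM in PL pigs. In LD, IFIT2 was 19.4 CPM in pig 5 and 13.6 CPM in PUL pig 2, above the PL maximum of 7.78 CPM, and the other 6 PUL libraries lay between 1.43 and 4.17 CPM.

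RSAD2 encodes viperin, a radical SAM enzyme that makes a nucleotide analogue that stops viral polymerases, and CMPK2 encodes a mitochondrial nucleotide kinase that can supply its substrate. The 2 genes are neighbours in the RefSeq pig gene table. RSAD2 was close to the detection floor in most libraries: in S it ranged from 0.157 through a median of 0.305 to 44.1 CPM in PUL pigs and from 0.066 through 0.314 to 0.808 CPM in PL pigs. The maximum was 799 counts in the S library of pig 5, where the other S libraries of both breeds held at most 14 counts. In LD, RSAD2 was 16.9 CPM in pig 5 and 1.63 CPM in PUL pig 2, and the median was 0.688 CPM in PUL and 0.438 CPM in PL pigs. CMPK2 in S ranged from 0.763 through 3.03 to 34.0 CPM in PUL pigs and from 0.806 through 2.29 to 4.55 CPM in PL pigs. In LD, it was 11.5 CPM in pig 5 and 7.97 CPM in PUL pig 13, against at most 4.17 CPM in PL pigs. The S library of pig 5 stood alone for both genes and its LD library for RSAD2, and the remaining libraries of the breeds overlapped.

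IFI44 and IFI44L, also neighbouring genes, encode related proteins with antiviral activity and, for IFI44L, a reported feedback role on the interferon response. IFI44 in S ranged from 2.03 through a median of 5.77 to 51.8 CPM in PUL pigs and from 2.96 through 6.42 to 8.54 CPM in PL pigs. In LD, it was 17.5 CPM in pig 5, 11.96 CPM in PUL pig 2 and 11.7 CPM in PL pig 10. The PUL and PL libraries otherwise covered the same range. IFI44L in S ranged from 9.65 through 23.5 to 91.4 CPM in PUL pigs and from 8.42 through 18.3 to 28.0 CPM in PL pigs. In LD, IFI44L was 1 of the 2 genes not led by pig 5, with 41.7 CPM in PUL pig 1 and 38.5 CPM in pig 5.

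USP18 and IRF7 regulate the response itself. USP18 encodes a protease that removes the ubiquitin-like ISG15 from proteins and damps signalling at the interferon receptor. USP18 in S ranged from 1.87 through a median of 2.33 to 18.3 CPM in PUL pigs and from 1.90 through 2.99 to 6.83 CPM in PL pigs. In LD, it was 10.0 CPM in pig 5 and at most 3.07 CPM in the other PUL pigs, against a PL range of 1.70 to 4.49 CPM. IRF7 encodes the transcription factor that drives further interferon production. IRF7 in S ranged from 2.36 through 4.73 to 25.9 CPM in PUL pigs and from 1.55 through 2.71 to 3.61 CPM in PL pigs. In LD, the highest value was 11.1 CPM in PUL pig 13, next to 11.03 CPM in pig 5, while PL pigs ranged from 1.24 to 4.14 CPM. The expected counts of IRF7 were not whole numbers in any of the 32 libraries, as happens where RSEM divides reads between features, and its level is less certain. Those of MX1 and IFI44 were whole in 21 libraries and those of IFIT2 in 23, and those of the other 6 genes in all 32.

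**Figure D2:**
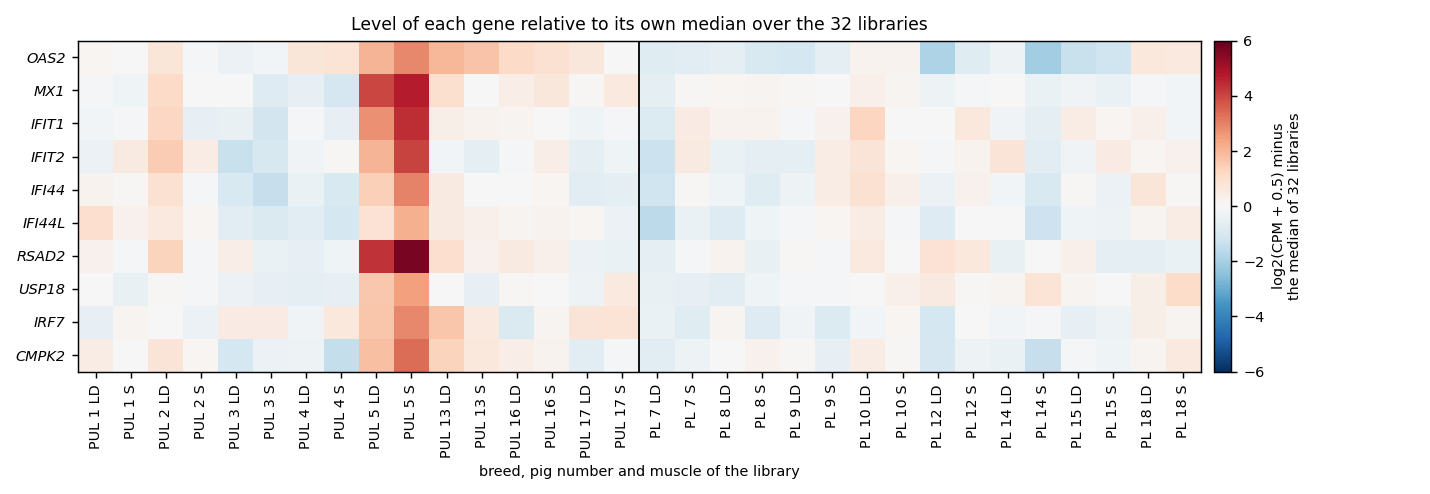
Level of each gene relative to its own median over the 32 libraries, as a difference in log2(CPM + 0.5), with libraries ordered by breed, pig and muscle. Both libraries of PUL pig 5 are raised across all 10 rows, while PUL pig 2 is raised in LD for MX1, IFIT1, IFIT2, IFI44 and RSAD2 and lies near the medians in S.

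How far pigs of a breed differ was tested for every gene against the difference between the muscles of a pig, with edgeR's quasi-likelihood F test of 14 pig coefficients. Of 11563 genes tested, 306 passed an adjusted p of 0.05, or 2.65%, and 8 of the 10 interferon-stimulated genes were among them. The smallest adjusted p was 9.76e-06 for MX1, the third smallest p of the whole table. RSAD2 followed at 0.000389, IFIT1 at 0.00377 and USP18 at 0.00459, while OAS2, CMPK2, IFIT2 and IFI44 had adjusted p between 0.0135 and 0.0195. IRF7 and IFI44L did not pass, with adjusted p of 0.0656 and 0.069. Without pig 5, 205 of 11600 genes passed, or 1.77%, and none of the 10 did, the nearest being OAS2 with an adjusted p of 0.0518. No call thus held without this animal, but the genes differed in how far they changed. The F of OAS2 went from 6.83 to 5.20, and that of MX1 from 27.4 to 2.32. Without pig 5, 4 of the 10 genes kept an unadjusted p under 0.05 in this F test, against 19.9% of all genes. Leaving out any other single pig left between 6 genes, without PUL pig 3, and all 10, without PL pig 14.

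The genes varied together. After centring each gene on its 4 group means, the median Pearson correlation over the 45 pairs of the 10 genes was 0.729 across the 32 libraries, with a range from 0.41 to 0.934, where the median over all gene pairs was -0.003. Without the 2 libraries of pig 5 the median fell to 0.367 over 30 libraries, with a range from -0.162 to 0.83. Libraries of 1 pig share an animal, so these values are a description without a test. The genes that stayed most alike without pig 5 were IFI44, with a mean correlation of 0.556 with the other genes, IFI44L with 0.491, IFIT1 with 0.481, MX1 with 0.475 and CMPK2 with 0.467. IRF7 and USP18, the regulators, kept the least, with 0.0767 and 0.164.

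The 10 genes outside the list whose centred level followed the mean of the 10 most closely over the 32 libraries were then read from the table. Those on the pathway lists were HERC6 with r = 0.938 and HERC5 with r = 0.938, both ubiquitin-type ligases, IFIH1 with r = 0.927, the RNA sensor MDA5, SAMD9 with r = 0.908 and UBA7 with r = 0.906, the enzyme that activates ISG15. HERC6 kept the closest pattern without pig 5, with r = 0.912 over 30 libraries. The others were an identifier paired with the symbol GHSR, with r = 0.911, and 4 identifiers without a symbol, with r from 0.895 to 0.921. Among these, ENSSSCG00000027982 held 540 CPM in S and 150 CPM in LD of pig 5, where the medians of the other 15 pigs were 10.8 and 10.1 CPM.

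Whether both muscles of a pig agree was measured as the correlation of log2(CPM + 0.5) in LD and S over the 16 pigs. The levels were not centred on breed, so a breed difference shared by both muscles can raise the correlation over pigs of both breeds. Over all genes 242 of 11563, or 2.09%, passed an adjusted p of 0.05 with a positive Pearson r in 100000 permutations, and the median r was 0.217. OAS2 was the only 1 of the 10 to pass, with r = 0.83 (permutation p = 4e-05, adjusted p = 0.0119) and Spearman rho = 0.865 (permutation p = 2e-05, adjusted p = 0.0289). Within breeds its r was 0.882 in the 8 PUL pigs (exact permutation p = 0.000694, adjusted p = 0.198) and 0.474 in the 8 PL pigs (exact permutation p = 0.236, adjusted p = 0.986). OAS2 kept its agreement without pig 5, with r = 0.785 (permutation p = 0.00047, adjusted p = 0.0437, passed by 1.25% of all genes), and without the 2 pigs farthest from the LD median, pigs 12 and 5, with r = 0.82. By Spearman's rho, 95 genes or 0.822% passed over 16 pigs, and without pig 5 only 0.0605% did, OAS2 not among them (rho = 0.836, permutation p = 0.00019, adjusted p = 0.0628). Pigs high in OAS2 in LD were thus mostly high in S, in PUL more closely than in PL pigs, a difference that was not tested. The OAS2 median was 11.8 CPM in PUL and 4.28 CPM in PL pigs in LD, and 9.85 and 4.10 CPM in S. The correlation of OAS2 over pigs of both breeds therefore includes this breed difference, and the size of that part was not tested. Within either breed OAS2 did not pass after adjustment.

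For the other 9 genes r over 16 pigs lay between 0.573 for IFI44L and 0.908 for MX1, with adjusted p between 0.0514 for CMPK2 and 0.258 for IFIT1. MX1, at r = 0.908 and rho = 0.618, had a permutation p of 0.00503 and an adjusted p of 0.104. The unadjusted p was under 0.05 in 10 of 10 genes against 16.3% of all genes, and in 2 of 10 without pig 5, OAS2 and CMPK2, against 14.4% of all genes. Without pig 5 the r of MX1 was 0.378, that of RSAD2 0.463, that of IFIT2 0.143 and that of IFIT1 -0.0435. The median over the 10 genes went from 0.72 to 0.437 without pig 5, and it was 0.851 within the 8 PUL and 0.204 within the 8 PL pigs, where the medians of all genes were 0.362 and 0.0205. For 8 of the 10 genes the permutation p of Pearson's r rose above 0.05 without pig 5, from 0.0559 for USP18 to 0.878 for IFIT1. How far r itself fell differed between these genes. That of IFI44L went only from 0.573 to 0.494, and that of MX1 from 0.908 to 0.378. By Spearman's rho without pig 5, MX1 (rho = 0.536, permutation p = 0.0407, adjusted p = 0.386), USP18 (rho = 0.636, permutation p = 0.0132, adjusted p = 0.256), IFI44L (rho = 0.636, permutation p = 0.0125, adjusted p = 0.254) and CMPK2 (rho = 0.675, permutation p = 0.00705, adjusted p = 0.205) kept an unadjusted p under 0.05. With a pseudocount of 2 CPM, 2.16% of all genes passed over 16 pigs, and 2 of the 10 did, OAS2 and CMPK2. Within the 8 PUL or the 8 PL pigs 0% of all genes passed. PUL pig 2 showed the opposite case, since it was raised in LD only: its IFIT1 was 7.15 CPM in LD and 1.77 CPM in S, and its IFIT2 was 13.6 and 6.12 CPM.

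**Figure D3:**
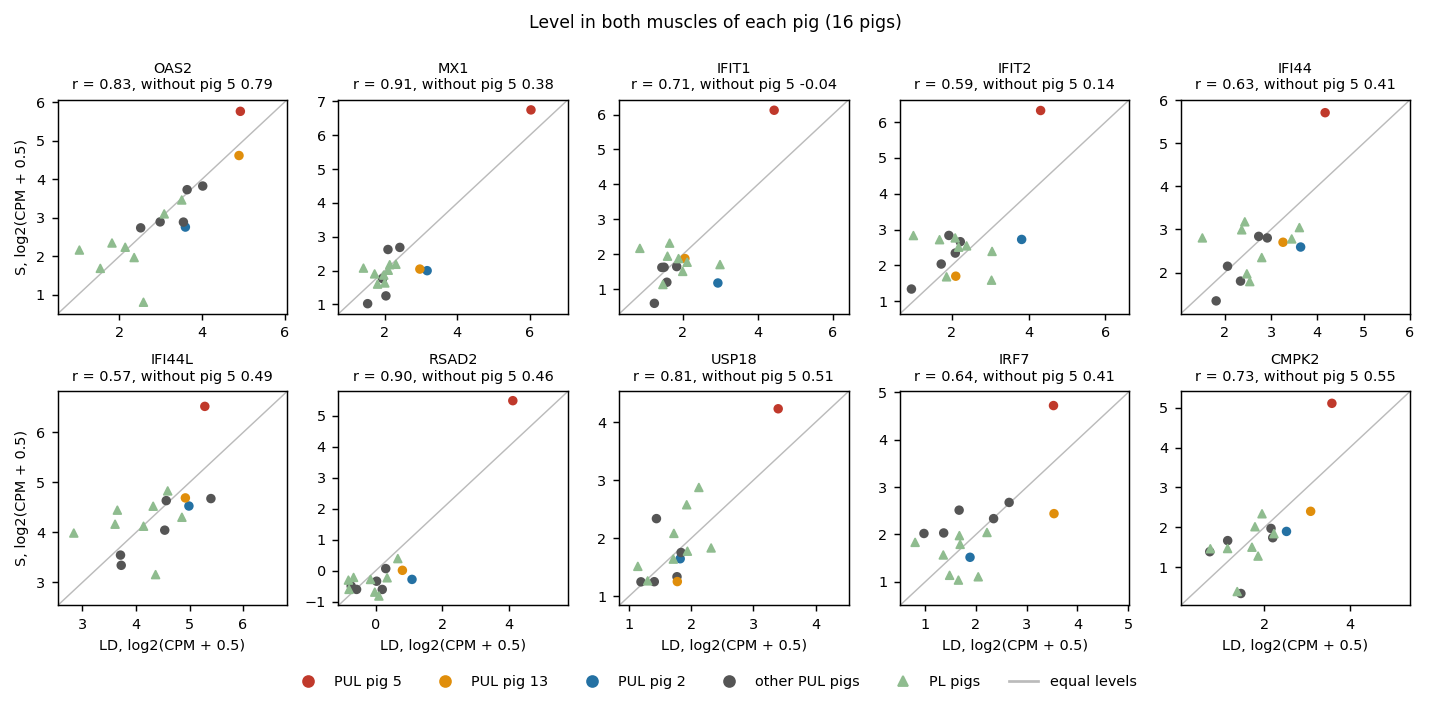
Level in S against level in LD for each gene, as log2(CPM + 0.5), with 1 point per pig (8 PUL pigs as circles, 8 PL pigs as triangles) and a line of equal levels. Pearson r over 16 pigs and without pig 5 stands above each panel, and OAS2 spreads along the line while most other panels hold 1 distant point, pig 5.

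No difference between the muscles was called for the 10 genes. In the test of S against LD with pig as a block, 11 of 11563 genes passed, or 0.0951%, and 12 of 11600 without pig 5, or 0.103%. None of the 10 did in either, with log2 fold changes over all pigs between -0.48 for RSAD2 and 0.32 for IFIT2. Without the block the 10 values ran from 0.03 to 0.63, all above 0, and 7 of them changed sign, again with none passing. With so few calls over all genes, the absence of a call does not show equal levels. In pig 5 itself all 10 genes were higher in S than in LD, for example 107 against 64.9 CPM for MX1 and 69.2 against 21.1 CPM for IFIT1. The test of whether the breed difference differs between muscles passed for 0 of 11563 genes in edgeR, with an unadjusted p under 0.05 in 294 genes, or 2.54%, and in none of the 10.

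The breeds were compared within each muscle, and over both muscles with the LD and S counts of each pig added together. All fold changes are PL over PUL on the log2 scale, so a negative value is higher in PUL. In LD, 0 of 10792 genes passed in edgeR's quasi-likelihood test (0%), with 7.15% of genes at an unadjusted p under 0.05, and the 10 genes had a median of -0.76 where all genes had 0.01. In S, 0 of 10687 genes passed (0%), with 11.7% at an unadjusted p under 0.05, and the 9 genes tested had a median of -1.46 where all genes had 0.02. RSAD2 was not tested in S because too few libraries held enough counts. Over both muscles 4 of 12008 genes passed, or 0.0333%, none of them among the 10, whose median was -1.21. All the fold changes of the 10 genes were below 0 in the 3 comparisons, and 4 of 10 in LD, 6 of 9 in S and 7 of 10 over both muscles had an unadjusted p under 0.05 with the higher level in PUL, where 3.51%, 6.33% and 7.19% of all genes did.

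Pig 5 decided most of these values. Without it 0.00913% of genes passed in LD, 0% in S and 0.0248% over both muscles, again with none of the 10, and the median of the 10 genes was -0.50 in LD, -0.03 in S and -0.36 over both muscles. The number with an unadjusted p under 0.05 and the higher level in PUL became 1 of 10 in LD, 2 of 9 in S and 2 of 10 over both muscles, against 3.35%, 8.14% and 7.80% of all genes. MX1 in S went from -2.31 ± 0.80 (SE) to -0.09 ± 0.27, and RSAD2 over both muscles from -3.52 ± 1.05 to -0.52 ± 0.46. IFIT1 in S turned from -1.78 ± 0.78 to 0.49 ± 0.25, and IFIT2, IFI44 and USP18 in S also changed sign. Among the other 15 pigs the estimates of these 4 genes in S were thus above 0, none of them past the threshold. A covariate was then fitted, the mean log2 level of the hepatocyte markers that passed the filter, 2 in S and 4 over both muscles. With this covariate, MX1 in S was 0.13, IFIT1 in S 0.84 and RSAD2 over both muscles 0.21. Only 4 of the 14 hepatocyte markers with an identifier passed the filter over both muscles, with a median log2 fold change of -4.87, or -3.64 without pig 5. Most of the list was close to 0 CPM in PL pigs, so a marker could pass through the PUL libraries alone. This median therefore describes a selected set. The part of these markers in the breed differences of the 10 genes was not tested.

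OAS2 and IRF7 were the 2 genes that kept an unadjusted p under 0.05 over both muscles without pig 5. OAS2 was -1.60 ± 0.40 (SE) in LD with an adjusted p of 0.481, -1.75 ± 0.49 in S with 0.219, and -1.68 ± 0.41 over both muscles with 0.0935, by edgeR's quasi-likelihood test with Benjamini-Hochberg adjustment. Without pig 5 it was -1.39 ± 0.40, -1.16 ± 0.39 and -1.29 ± 0.35, with adjusted p of 0.534, 0.171 and 0.146. The difference of OAS2 thus did not pass after adjustment in this test in either muscle or in both. DESeq2 did call it, with adjusted p of 0.0302 in LD, 0.0304 in S and 0.00389 over both muscles, and it called IRF7 over both muscles with an adjusted p of 0.0379, where 0.187%, 0.964% and 1.85% of all genes passed. Without its replacement of outlying counts it called the same genes and in addition IRF7 in S and RSAD2 over both muscles, where 0.181%, 1.15% and 1.85% of all genes passed. edgeR's exact test called none of the 10 in LD or S and OAS2 and RSAD2 over both muscles, where 0.12%, 0.524% and 1.23% of all genes passed. IRF7 was -1.23 ± 0.37 over both muscles with an adjusted p of 0.166, -0.73 ± 0.25 without pig 5 and -0.68 ± 0.39 with the hepatocyte covariate.

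**Figure D4:**
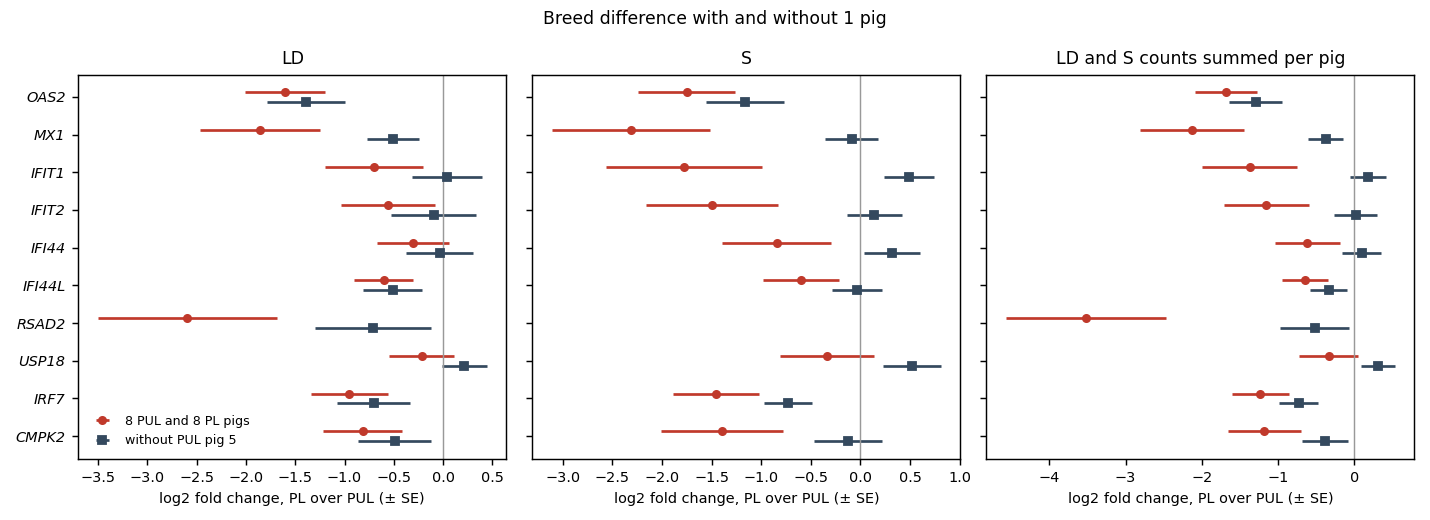
Log2 fold change, PL over PUL, of each gene in LD, in S and over the summed counts of both muscles, with bars of 1 SE, for all 16 pigs (red circles) and without PUL pig 5 (dark squares). MX1 and RSAD2 move towards 0 when pig 5 is left out, while OAS2 stays between -1.39 and -1.16 in the 3 panels; RSAD2 has no value in S.

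The rest of the interferon pathway was described from lists of named genes. Of 26 other interferon-stimulated effectors with an identifier, 19 passed the filter, and pig 5 was the highest of 16 in both muscles for 13 of the 19, against 1.31% of all genes. The pig test called 6 of the 19, HERC5, HERC6, DDX60, PARP14, UBA7 and UBE2L6, against 2.65% of all genes, and none without pig 5. UBE2L6, the enzyme that passes ISG15 to its ligases, held 76.2 CPM in S and 32.6 CPM in LD of pig 5, above all other PUL libraries, which reached 16.3 and 14.9 CPM. PARP14, an ADP-ribosyltransferase, held 28.8 CPM in S and 11.2 CPM in LD, against at most 2.10 and 3.36 CPM in the other PUL pigs. GBP2, a guanylate-binding GTPase, and the RNA-editing enzyme ADAR were also highest in pig 5 in both muscles, at 54.2 and 16.3 CPM in S. In the breed test over both muscles 19 of 20 effectors tested were below 0, with a median of -0.55 that was -0.00 without pig 5, and none was called. The smallest p was that of HERC5, at -1.84 ± 0.63 (SE, adjusted p = 0.208), and EIF2AK2 was the only 1 above 0, at 0.11. MX2, the neighbour of MX1, did not pass the filter and was listed at 6.85 CPM in S and 5.27 CPM in LD of pig 5, where no other library exceeded 0.514 CPM.

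Among the nucleic acid sensors and adaptors 10 of 15 with an identifier passed the filter. The pig test called 3 of these 10, DDX58, IFIH1 and DHX58, against 2.65% of all genes. Without pig 5 it called none, against 1.77% of all genes. These are the 3 RIG-I-like receptors, which detect viral RNA in the cytoplasm. DDX58, the gene of RIG-I, held 88.7 CPM in S and 32.8 CPM in LD of pig 5, against at most 17.6 CPM in any other library. IFIH1 held 30.4 CPM in S and 7.66 CPM in LD, against at most 3.78 CPM elsewhere. DHX58 held 27.7 CPM in S and 18.5 CPM in LD of pig 5, but its highest library was the S library of PL pig 8, at 116 CPM. MAVS, the adaptor downstream of both, was not raised, at 60.0 CPM in S of pig 5 beside a median of 62.1 CPM in the other PUL pigs. None of the 12 sensors tested was called between breeds over both muscles. MAVS, at -0.38 ± 0.13 (SE, adjusted p = 0.207), and DDX58, at -1.15 ± 0.46 (adjusted p = 0.28), had the smallest p below 0, and CGAS, at 0.20, and IKBKE, at 0.34, above 0.

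None of the 12 tested genes of the JAK-STAT and IRF list was called by the pig test. In S of pig 5, STAT2 held 7.35 CPM, IRF9 21.3 CPM and IRF1 44.4 CPM, each the highest of the 16 S libraries. Pig 5 was the highest S library for 5 of the 12 and the highest in both muscles for 1, IRF9. In the breed test over both muscles the list's median was 0.08, the smallest p values belonged to IRF9 and IRF3 below 0 (adjusted p = 0.575 and 0.806) and to PIAS1 and IRF5 above 0 (adjusted p = 0.736 and 0.772). The antigen presentation list had 3 genes past the filter in the pig test, none called. Its breed test over both muscles, with 4 genes, gave PSMB9 and TAP2 above 0 (adjusted p = 0.712 and 0.859) and TAPBP as the only 1 below 0 (adjusted p = 0.948).

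The interferons themselves were barely read. IFNB1 and IFNK had 0 counts in all 32 libraries, which allows a level of up to 0.353 CPM in the shallowest library, and IFNE had 1 count in all. This floor covers counting error only. Other interferon genes were not analysed here. Of the receptors, IFNGR1 was measured, at 20.2 CPM in S and 9.76 CPM in LD of pig 5, beside medians of 15.0 and 12.8 CPM in the other PUL pigs.

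**Figure D5:**
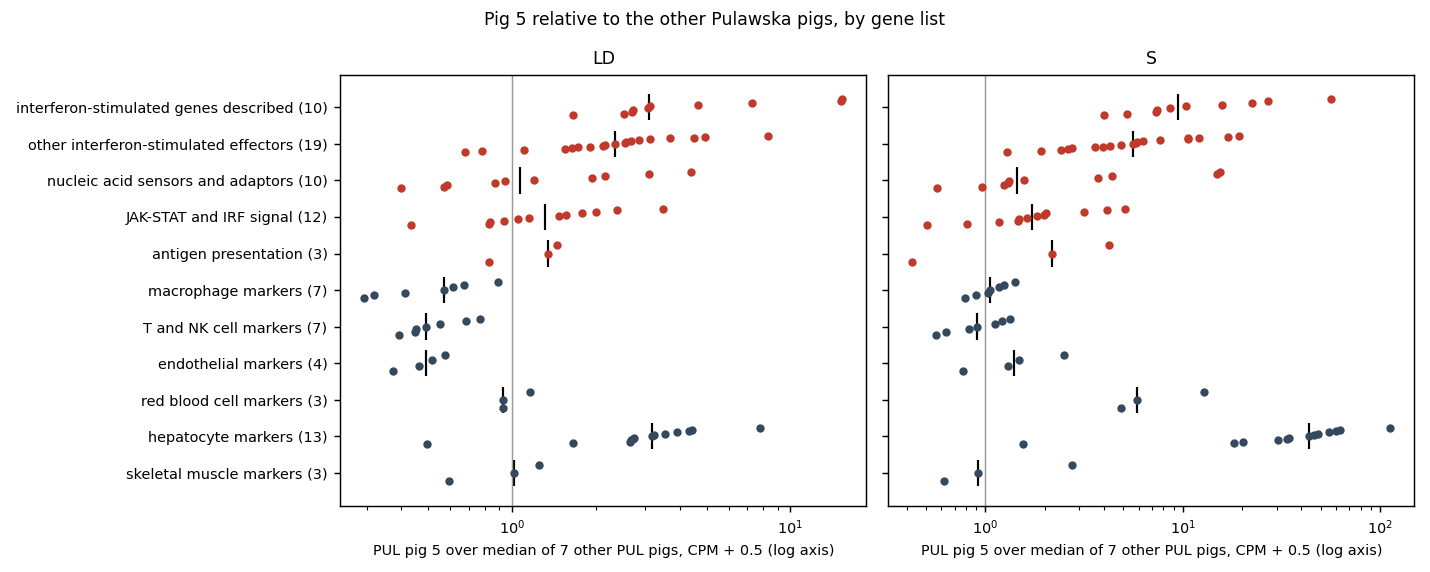
Ratio of PUL pig 5 to the median of the 7 other PUL pigs (CPM + 0.5, log axis) in LD and S for each gene of the lists that passed the filter on low counts, with a line at each list's median and the number of genes in brackets. The lists of interferon-stimulated genes have medians of 3.11 and 2.35 in LD and 9.54 and 5.64 in S. The macrophage list and the T and NK cell list have medians from 0.492 to 1.06, and the hepatocyte list reaches a median of 43.6 in S.

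Markers of other cells were read in the same 2 libraries. For the macrophage list, 8 of 12 had an identifier, and their summed level in pig 5 was 9.62 CPM in LD, the lowest of the PUL pigs, and 31.8 CPM in S beside a PUL median of 30.3 CPM. For T and NK cells, 8 of 12 markers summed to 2.11 CPM in LD, again the lowest, and 5.08 CPM in S beside a median of 5.01 CPM. The 4 B and plasma cell markers summed to 0.351 CPM in LD and 0.994 CPM in S, the lowest of the PUL pigs in both muscles. Pig 5 was the highest library for none of the macrophage, T and NK, or B cell markers that passed the filter. The 3 plasmacytoid dendritic cell markers summed to 2.49 CPM in S, the highest of the PUL pigs but under the PL maximum in that muscle, and to 0.632 CPM in LD, the lowest. The 4 neutrophil markers summed to 0.497 CPM in S and 0.0702 CPM in LD, and none passed the filter. The 3 adipocyte markers summed to 77.6 CPM in LD of pig 5, the highest of the 32 libraries, and to 18.7 CPM in S, under the PUL median of 26.5 CPM. PLIN4 alone made up 68.8 CPM of the LD sum. The other markers were not highest there: PLIN1 held 2.25 CPM and CIDEC 6.53 CPM, where other PUL pigs reached 3.91 and 16.5 CPM in LD. The 4 endothelial markers summed to 46.4 CPM in LD of pig 5, the lowest of the 32 libraries, and to 111 CPM in S beside a PUL median of 114 CPM. The part of these cells in the levels was not tested.

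Liver-type transcripts did stand apart in the S library of pig 5, and red blood cell transcripts did so among PUL libraries only. The 13 hepatocyte markers that passed the filter summed to 1613 CPM there, with ALB alone at 920 CPM, against 22.5 to 148.6 CPM in the S libraries of the other PUL pigs. The 3 red blood cell markers summed to 732 CPM there, against 12.9 to 266.7 CPM in the S libraries of the other PUL pigs. Their sum reached 673 CPM in the S libraries of PL pigs, and 1070 and 734 CPM in the LD libraries of PL pigs 10 and 18. In LD, pig 5 was not the highest in either list. Its hepatocyte sum of 148.4 CPM lay under those of PUL pig 2, at 172.8 CPM, and PUL pig 4, at 166.6 CPM. The red blood cell sum in LD of pig 5 was 133.9 CPM, within the PUL range of 30.2 to 282 CPM. The breed tests were repeated with a covariate, the mean log2 level of the hepatocyte markers that passed the filter in each fit. These were only 2 markers in LD, 2 in S and 4 over both muscles, not the 13 summed above. With this covariate 0% of all genes passed in LD, 0.00936% in S and 0% over both muscles, none of them among the 10. The breed difference of OAS2 was then -1.81 in LD, -1.20 in S and -1.39 over both muscles. In that fit 6 of the 9 genes tested in S had an estimate above 0. The part of these transcripts in the levels of the 10 genes was not tested in either muscle.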

How the data were processed

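Muscle RNA of 16 gilts was depleted of rRNA by the authors, made into libraries that do not mark strand and read as single reads. The authors trimmed the reads with Flexbar and mapped and counted them with Bowtie 2 and RSEM on the pig genome Sscrofa10.2; the submitters' processing notes also list CASAVA 1.8.2, FastQC, edgeR and DESeq2. The deposited gene table holds RSEM expected counts per gene, of which 14.7% are not whole, and these were rounded. The isoform table was not used. Reads shared between near-identical or overlapping genes are split by RSEM, so such genes are less certain. Of 25322 identifiers, 11804 had a symbol in the gene name tables, which were also used, with no coordinates, for neighbouring genes. Totals ran from 8821273 to 24761853 counts per library.

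Tests used R 4.3.3 with edgeR 4.0.16 (TMM, filterByExpr, quasi-likelihood test, Benjamini-Hochberg adjustment over all genes tested). A call needed an adjusted p of at most 0.05 and, for breed and muscle, a fold change of at least 1.3. Breeds were compared in LD, in S and on the counts of both muscles summed per pig. Pigs, muscles and the interaction were tested in 1 model of all 32 libraries with pig as a term. Levels are TMM-scaled CPM, and ratios and correlations used CPM + 0.5. Alternatives were DESeq2 1.42.0 with and without its replacement of outlying counts (the latter chosen after seeing the data), edgeR's exact test, limma 3.58.1, RLE scaling, no filter, a minimum of 10 counts, leaving out each pig, and a covariate of hepatocyte markers. Leaving out pig 5 for correlations and lists was also chosen after seeing the data. The hepatocyte covariate averaged the markers that passed the filter in each fit, 2 in LD, 2 in S and 4 over both muscles. Scripts were tested on simulated data.

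The muscles of a pig were matched by the number in the sample descriptions. Deviations of LD and S of a pig correlated with r from -0.517 to 0.686, over 0.1 in 11 of 16 pigs. Over 29 genes that were on in some LD libraries and off in others, the LD library was most like the S library of its own number in 9 of 16 pigs, but over all genes in only 4 of 16, so the pairing rests on the sample descriptions. The labels' shear force classes run against the study's account of the breeds' tenderness and were not used; the breeds follow the breed label. Pigs are separate animals. The 10 genes and all lists were chosen with earlier results of these data known. Genes were named as these 10, the list genes past a threshold or, in the breed test over both muscles, the 2 with the smallest p in each direction, and the 10 genes most alike. A few genes that these rules name are not reported here. Further list genes, the pigs named and the values beside the results were chosen after seeing the data.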

Additional observations from a re-analysis of the deposited data

Results flagged for a closer look

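Within each group of 8 libraries, a library was marked when its gap to the nearest other library was a larger part of the group's range than Dixon's critical value. For normally distributed values chance gives this in about 1 in 20 groups. CPM was not transformed here, and over all genes the highest library was marked more often, in 10.4% in PUL LD and 11.6% in PUL S. Of the 40 combinations of gene and group, 16 were marked, all at the high end. In PUL S, pig 5 was marked for all 10 genes: OAS2 at 53.8 CPM, MX1 at 107 CPM, IFIT1 at 69.2 CPM, IFIT2 at 79.6 CPM, IFI44 at 51.8 CPM, IFI44L at 91.4 CPM, RSAD2 at 44.1 CPM, USP18 at 18.3 CPM, IRF7 at 25.9 CPM and CMPK2 at 34.0 CPM. Pig 5 was the highest and marked library in PUL S for 5.2% of all 11563 genes. In PUL LD, pig 5 was marked for 4 genes, MX1 at 64.9 CPM, IFIT1 at 21.1 CPM, RSAD2 at 16.9 CPM and USP18 at 10.0 CPM, and for 1.12% of all genes. In PL pigs, IFIT1 in LD of pig 10 was marked at 7.45 CPM and RSAD2 in S of pig 12 at 0.808 CPM, where the highest library was marked for 12.6% and 17.6% of all genes. The 2 highest OAS2 libraries in PUL LD, pigs 5 and 13, lay close together and neither was marked.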

How the results depend on the processing

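With 16 pigs and 1 library per muscle, none of the 10 genes passed edgeR's quasi-likelihood test between breeds, and under RLE scaling, a minimum of 10 counts, the hepatocyte covariate and the replicate block this number remained 0 in each of the 3 breed comparisons. DESeq2 called 1 of the 10 in LD and 1 in S (OAS2) and 2 over both muscles (OAS2 and IRF7); without its replacement of outlying counts it called 1, 2 and 3. edgeR's exact test called 2 and the fit without a filter and limma with duplicateCorrelation 1 each, over both muscles. Over all genes the counts under DESeq2 were 19, 103 and 222 in LD, S and both muscles, without replacement 18, 120 and 222, with the exact test 13, 56 and 148, without a filter 4, 4 and 193, and with limma over both muscles 76. The cause of the differences between tools was not tested. RLE scaling gave 1 in S, the hepatocyte covariate 1 in S and 0 over both, a minimum of 10 counts 1 over both, and the replicate block 0 over both. Pigs of different breeds with the same replicate number are different animals. Their deviations correlated with r from -0.299 to 0.552 in LD, over 0.1 in 6 of 8 pairs. In S, r ran from -0.308 to 0.203, over 0.1 in 2 of 8 pairs. What the correlated pairs share was not tested. Without the pig block, 16 genes differed between muscles.

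Leaving out each pig in turn gave from 0 to 1 genes called over all genes in LD and in S, 0 to 21 over both muscles, 4 to 78 between muscles and 198 (without PUL pig 13) to 816 (without PL pig 14) between pigs; 78 between muscles was also without PL pig 14. Between pigs, 0 to 10 of the 10 genes were called, 0 without PUL pig 5. A minimum of 10 counts gave 199 genes between pigs and 0 between muscles. Over these fits the log2 fold change (PL over PUL) ran from -1.003 to 0.036 for IFIT1 and -0.32 to 0.22 for USP18 in LD. In S it ran from -1.95 to 0.49 for IFIT1, -1.66 to 0.14 for IFIT2, -1.003 to 0.32 for IFI44 and -0.52 to 0.52 for USP18. Over both muscles it ran from -1.55 to 0.18 for IFIT1, -1.32 to 0.015 for IFIT2, -0.76 to 0.094 for IFI44 and -0.47 to 0.31 for USP18. Each positive end was the fit without PUL pig 5.

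Directions also turned under DESeq2, which replaces outlying counts, for IFIT1 (0.058 in LD, 0.44 in S, 0.17 over both), IFIT2 (0.11 in S, 0.022 over both), IFI44 (0.28 in S) and USP18 (0.48 in S). With the replicate block USP18 in S was 0.14. With the hepatocyte covariate IFIT2 was 0.11 and USP18 0.020 in LD. In S, that fit gave MX1 0.13, IFIT1 0.84, IFIT2 0.69, IFI44 0.55, IFI44L 0.092 and USP18 0.77, and over both muscles IFIT1 0.69, IFIT2 0.68, IFI44 0.41, RSAD2 0.21 and USP18 0.54. The hepatocyte level was higher in most PUL than PL libraries, so it and the breed cannot be fully told apart, and the cause was not tested.

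The number of the 10 genes whose muscles correlated past the threshold was 1 over 16 pigs and 2 with a pseudocount of 2 CPM. Levels were not centred on breed in either case. The number was 0 within the 8 PUL, the 8 PL and the 7 PUL pigs without pig 5, where no gene of the whole table passed either. The r of IFIT1 was -0.257 in PL pigs, -0.0435 without pig 5 and -0.0937 without its 2 farthest pigs, that of IFIT2 was -0.499 and that of IRF7 -0.0415 in PL pigs. At 3 counts the floor reached 0.353 CPM, which limits RSAD2.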

Other observations

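The S library of PL pig 8, the shallowest of the series, was the highest of all 32 for 4 genes of the interferon pathway lists that passed the filter on low counts and for the macrophage marker CD14. DHX58, a regulator of RNA sensing, held 116 CPM there, where the next library, the S library of PUL pig 5, held 27.7 CPM. CGAS, the cytoplasmic DNA sensor, held 39.3 CPM against 14.9 CPM in the next library, which was the LD library of the same pig. EIF2AK2, the kinase PKR, held 15.4 CPM against 6.41 CPM, and IKBKE, a kinase that activates IRF3 and IRF7, held 8.72 CPM against 2.19 CPM. The 10 genes of the report were not raised in that library, with MX1 at 4.005 CPM, IFIT1 at 3.18 CPM and OAS2 at 3.42 CPM. These genes were picked after their values were seen, and no test was run. The share of all genes for which this library was the highest was not counted, so the 4 genes have no background to be read against.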
